A study of Mus musculus with 14 samples.

Results

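The secreted defence proteins considered here are lactotransferrin (Ltf), lipocalin 2 (Lcn2), haptoglobin (Hp), ceruloplasmin (Cp), the lysozymes Lyz1 and Lyz2, the protease inhibitors Slpi and Wfdc2 and the chitinase-like protein Chil1. They were measured in tumours of mice on Affymetrix expression arrays. Every probeset whose only gene symbol on the platform is 1 of these 9 was taken, which gave 17 of the 22690 probesets in the table, and 16 of the 17 passed the filter on low values. The genes were selected on earlier results of these same arrays, in which Ltf and Hp read lower in the group lacking HIF-2α, so their differences between the groups are given as descriptions and carry no test.

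The 14 arrays hold total RNA from 7 Control mice and 7 mice labelled Hif 2alpha Knockdown in their titles and Hif2alpha deficient in their genotype, called deficient below. HIF-2α, encoded by Epas1, is a transcription factor stabilised when oxygen is low. Both groups had a mixed 129 SvJ/C57Bl6 background. How HIF-2α was removed, how old the animals were and in which organ the tumours grew are not stated in the labels. Published work from this study concerned lung tumours, and surfactant protein genes of alveolar type II cells read high in both groups (Sftpc 13.74 to 13.92 in the Control group, 13.77 to 14.17 in the deficient group). The Epas1 probeset overlapped between groups, with 4.65 to 6.50 among controls and 4.88 to 6.39 among deficient arrays. No source used here says whether it lies in the part that was lost, and outside that part it would check nothing.

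Values are GCRMA levels on a log2 scale, so a difference of 1 is a change by a factor of 2. Values under 4 were treated as background, which GCRMA sets, and are bounds rather than measured levels. The levels of separate probesets cannot be ranked against each other. The number that opens each sample's description, read without its final digit, is shared by several arrays of a group. These leading digits may mark a mouse with several tumours or something else, and no source used here says which. The design text gives 7 mice for each group, but if the digits mark a shared source the arrays are fewer independent samples than 14. A later number in the descriptions runs in 1 block per group, so an order of processing, if it is that, and the group cannot be told apart. Deficient 1 and deficient 3 agreed least with their own group (mean correlation across tested probesets 0.905 and 0.909), against 0.930 to 0.971 for the other 12 arrays.

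As background, these proteins guard mucosal surfaces and plasma. Lactotransferrin binds iron and lipocalin 2 binds the siderophores with which bacteria collect it, haptoglobin binds free haemoglobin, and ceruloplasmin is a copper ferroxidase that is known to respond to low oxygen. Lysozymes cut bacterial cell walls, Slpi and Wfdc2 carry WAP domains and inhibit or resemble inhibitors of serine proteases, and Chil1 binds chitin without cutting it. In the airway, secretory epithelium, glands, macrophages and neutrophils make overlapping sets of them. In the liver, haptoglobin and ceruloplasmin belong to the acute-phase response, which interleukin 6 drives through STAT3 and C/EBP factors.

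Promoter sequences are shown for Ltf and Cp because their levels lay lower in deficient tumours, for Slpi because it holds the hypoxia motif searched for, and for Lyz1 and Lyz2 because they are neighbouring paralogs whose probesets may read each other's transcript. RefSeq promoters (build GRCm38.p6) were matched for 8 of the 9 genes, not for Hp. Each sequence is the 250 bases before the transcription start, 5′ to 3′ on the strand of the gene, with matches to the searched motifs in capitals. The motifs were the core of the hypoxia response element (ACGTG or GCGTG), a C/EBP motif (TTGCNNAA), a STAT motif (TTCNNNGAA) and the NF-kB motif, all on both strands, and the TATA box (TATAAA) on the gene's strand. CACGTG reads the same on both strands and so matches the hypoxia core on each.

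Ltf, chr9:111019042-111019291, + strand: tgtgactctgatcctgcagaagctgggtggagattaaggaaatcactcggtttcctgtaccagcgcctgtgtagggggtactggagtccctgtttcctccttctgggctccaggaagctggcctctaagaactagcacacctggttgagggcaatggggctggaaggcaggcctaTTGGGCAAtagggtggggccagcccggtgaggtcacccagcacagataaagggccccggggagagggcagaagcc

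Cp, chr3:19956999-19957248, + strand: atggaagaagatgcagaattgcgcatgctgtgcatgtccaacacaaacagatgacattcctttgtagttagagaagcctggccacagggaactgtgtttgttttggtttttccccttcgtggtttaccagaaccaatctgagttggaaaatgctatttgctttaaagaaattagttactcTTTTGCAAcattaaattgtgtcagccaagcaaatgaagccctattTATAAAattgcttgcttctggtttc

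Slpi, chr2:164356508-164356757, - strand: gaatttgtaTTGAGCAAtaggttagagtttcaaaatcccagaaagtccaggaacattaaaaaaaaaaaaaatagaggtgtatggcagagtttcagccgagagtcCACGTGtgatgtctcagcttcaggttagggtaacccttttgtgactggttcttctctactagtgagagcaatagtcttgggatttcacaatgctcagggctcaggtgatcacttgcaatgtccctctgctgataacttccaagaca

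Lyz2, chr10:117282273-117282522, - strand: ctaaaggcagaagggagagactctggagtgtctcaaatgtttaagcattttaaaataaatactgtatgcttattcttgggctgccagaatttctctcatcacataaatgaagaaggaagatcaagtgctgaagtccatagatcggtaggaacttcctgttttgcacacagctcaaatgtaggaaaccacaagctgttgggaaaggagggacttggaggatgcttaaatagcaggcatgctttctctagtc

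Lyz1, chr10:117292869-117293118, - strand: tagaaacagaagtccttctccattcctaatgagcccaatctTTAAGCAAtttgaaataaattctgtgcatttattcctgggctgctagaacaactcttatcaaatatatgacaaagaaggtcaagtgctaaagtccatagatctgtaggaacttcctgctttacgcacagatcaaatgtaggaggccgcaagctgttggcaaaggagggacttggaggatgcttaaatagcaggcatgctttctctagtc

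The Ltf window held 1 match, to the C/EBP motif, 75 bases before the start. The Cp window held a C/EBP match 70 bases and a TATA box 25 bases before the start, while the window of a second Cp start further upstream held none of these motifs. The C/EBP motif was also matched in Lcn2, Slpi and Lyz1, and it occurred in 9.56% of the 32851 RefSeq promoter windows of this length. The hypoxia core was matched in Slpi and Wfdc2 and in 38.6% of all windows, and it was not found in the windows of Ltf, Cp, Lcn2, Chil1, Lyz1 or Lyz2. Chil1 held an NF-kB match 179 bases before its start, as 7.25% of windows did, and the STAT motif (7.02% of windows) was found in none of the 8 genes. The TATA box occurred in 7.59% of windows. These are matches of letters in a short window, and no binding was measured.

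Lactotransferrin had the widest gap of the 9 genes. Its probeset (1450009_at) read 6.10, 10.14, 6.12, 11.33, 13.24, 10.21 and 12.90 in controls 1 to 7, and 2.91, 2.35, 5.05, 2.77, 2.35, 6.67 and 2.34 in deficient 1 to 7. Thus 5 control arrays lay above every deficient array, while control 1 and control 3 lay below deficient 6. In 5 of the 7 deficient arrays Ltf was under 4, at background, and the exceptions, deficient 3 and deficient 6, share the leading digits of their descriptions. The means were 10.01 ± 2.92 (SD, n = 7) and 3.49 ± 1.70, a difference (deficient minus control) of -6.51 (SE 1.16, 95% interval -8.995 to -4.03). With values under 4 set to 4 the difference was -5.47, and a size against background depends on where the background is set.

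The controls themselves spanned 7.14 on the log2 scale for Ltf, more than the distance between the group means. Control 1 (6.10) and control 4 (11.33) share leading digits, so a wide spread was also found among arrays with the same leading digits. The mean of that pair was 8.71 and that of the other controls 10.52, while among deficient arrays the pair 3 and 6 averaged 5.86 and those with other leading digits 2.35 to 2.63. In bulk tumour RNA, fewer cells that make a transcript and less of it per cell cannot be told apart.

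Haptoglobin (1448881_at) lay lower by a small and even step. The controls read 12.81, 13.16, 12.93, 13.09, 13.10, 13.52 and 13.20, and the deficient arrays 12.32, 12.23, 12.29, 12.42, 12.24, 12.95 and 12.73. Deficient 6 reached into the control range, above control 1 and control 3, and the other six deficient arrays lay below every control. The difference was -0.66 (SE 0.14, 95% interval -0.95 to -0.36), a level 1.58 times higher in controls.

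Ceruloplasmin was read by 7 probesets, which allows 1 gene to be compared with itself. All 7 had a lower mean in deficient tumours, by -1.33 to -2.09 with a median of -1.55. For the brightest (1455393_at), which represents the gene, controls read 10.86, 11.67, 11.25, 10.70, 12.14, 11.54 and 11.72 and deficient arrays 11.55, 10.25, 8.56, 10.09, 10.68, 10.35 and 8.72. Deficient 1 sat among the controls, and the other deficient arrays lay below the lowest control. This probeset differed by -1.38 (SE 0.41, 95% interval -2.26 to -0.51), or 2.61 times.

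The widest Cp difference was in 1417496_at, at -2.09 (SE 0.50, 95% interval -3.16 to -1.03). Here the controls read 7.57 to 10.37 (median 9.31) and the deficient arrays 4.57 to 7.66 (median 7.24), and 6 of the 7 controls lay above every deficient array. The other Cp probesets gave differences of the same sign. The probeset 1417494_a_at had means of 11.22 ± 0.55 and 9.68 ± 1.09, and 1417495_x_at 10.53 ± 0.63 and 8.91 ± 1.00. The means of 1448734_at were 8.97 ± 0.69 and 7.14 ± 1.15, and those of 1448735_at 7.51 ± 0.62 and 6.02 ± 1.27. The dimmest, 1417497_at, read 5.48 ± 0.80 and 4.15 ± 1.17, with some deficient arrays under 4. In all 7 the deficient arrays were the more widely spread group.

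Deficient 1 is the array in which the probesets disagreed most: against the control mean it read 0.59 in 1417497_at and -1.61 in 1417496_at. Deficient 3 was the lowest of the 14 arrays in 7 of 7 Cp probesets, on average -3.64 from the control mean, and among controls 1 and 4 were lowest, at -0.82 and -0.91. Without deficient 3 the difference of 1455393_at was -1.14, its smallest with a single array left out. The labels do not say which Cp transcript each probeset reads, and the 7 share 1 gene and are not replicates.

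**Figure D1:**
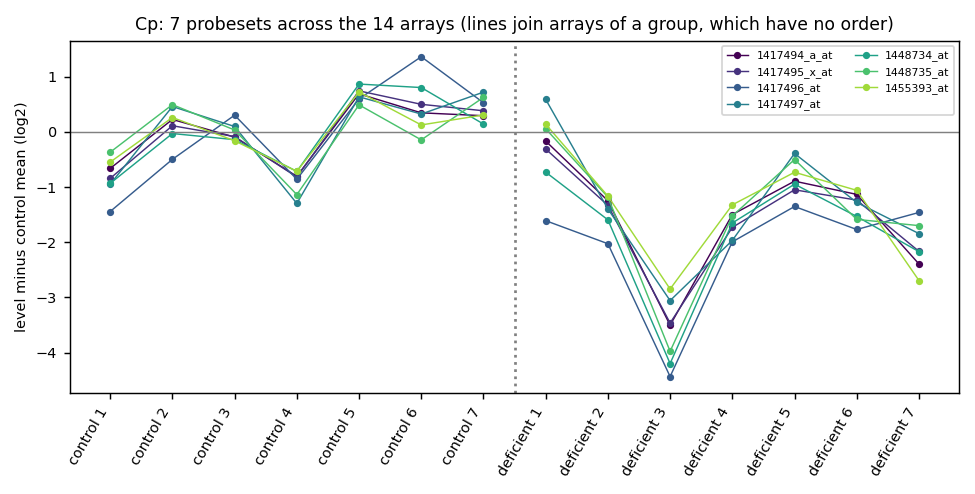
Level of each of the 7 Cp probesets minus its own control mean (log2) in the 14 arrays, controls left of the dotted line and deficient arrays right of it; lines only join the points of a probeset, since arrays have no order. Deficient 3 is lowest in 7 of 7 probesets, and deficient 1 holds values from -1.61 to 0.59.

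The iron-scavenging and chitinase-like members Lcn2 and Chil1 read high and alike in both groups. Whether the arrays resolve differences at levels this high was not tested, for these genes or for Wfdc2 and the lysozymes below. Lcn2 (1427747_a_at) read 13.48, 13.61, 13.77, 12.77, 13.63, 13.63 and 13.54 in controls and 13.37, 13.79, 13.14, 13.63, 13.46, 13.70 and 13.69 in deficient arrays. Control 4 was the lowest of the 14 and deficient 3 the next, and the groups overlapped. The difference was 0.05 (SE 0.15, 95% interval -0.28 to 0.38). Chil1 (1451537_at) spanned 12.90 to 13.79 among controls (median 13.46) and 13.28 to 13.71 among deficient arrays (median 13.62), again with control 4 lowest, and differed by 0.12 (SE 0.13, 95% interval -0.14 to 0.39).

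The WAP-domain members differed in spread. Slpi (1448377_at), which inhibits neutrophil elastase, read 12.06, 12.18, 12.84, 10.56, 11.64, 11.52 and 12.29 in controls and 11.18, 11.79, 10.99, 11.91, 11.71, 12.59 and 12.12 in deficient arrays. The groups overlapped over nearly their whole range, with control 4 and deficient 3 lowest, and the difference was -0.12 (SE 0.32, 95% interval -0.80 to 0.56). Wfdc2 (1424351_at) read 13.25 to 13.63 over the controls (median 13.38) and 12.93 to 13.43 over the deficient arrays (median 13.20). Below the lowest control lay 4 deficient arrays, and the difference was -0.17 (SE 0.10, 95% interval -0.38 to 0.04).

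The lysozyme probesets read high and overlapped between the groups, except for a Lyz1 probeset at background. Lyz2 (1423547_at), the lysozyme gene of macrophages and also of alveolar type II cells, spanned 13.50 to 13.68 among controls (median 13.60) and 13.22 to 14.02 among deficient arrays (median 13.58), a difference of 0.02 (SE 0.11, 95% interval -0.22 to 0.26). A pair of Lyz1 probesets whose names carry the suffix x_at, which Affymetrix gives to probes that can bind related transcripts, differed by 0.05 (SE 0.11) and 0.02 (SE 0.12). The third Lyz1 probeset (1450822_at) was at background in all 14 arrays, at 2.20 to 2.39, and was not tested. All 3 bright lysozyme probesets were highest in deficient 1 and lowest in deficient 3. Because of what their suffix stands for, the x_at values are uncertain as a level of Lyz1, and cross-binding was not tested.

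The pair lie next to each other, with 0 protein-coding genes between them in the RefSeq table. Their promoter windows shown above were identical at 205 of 260 aligned positions (78.8%). Lyz1 held a C/EBP match 209 bases before its start and Lyz2 held none of the motifs. The deficient arrays were more spread than the controls for Lyz2 (SD 0.25 against 0.06), through deficient 1 and deficient 3, and this difference in spread was not tested.

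**Figure D2:**
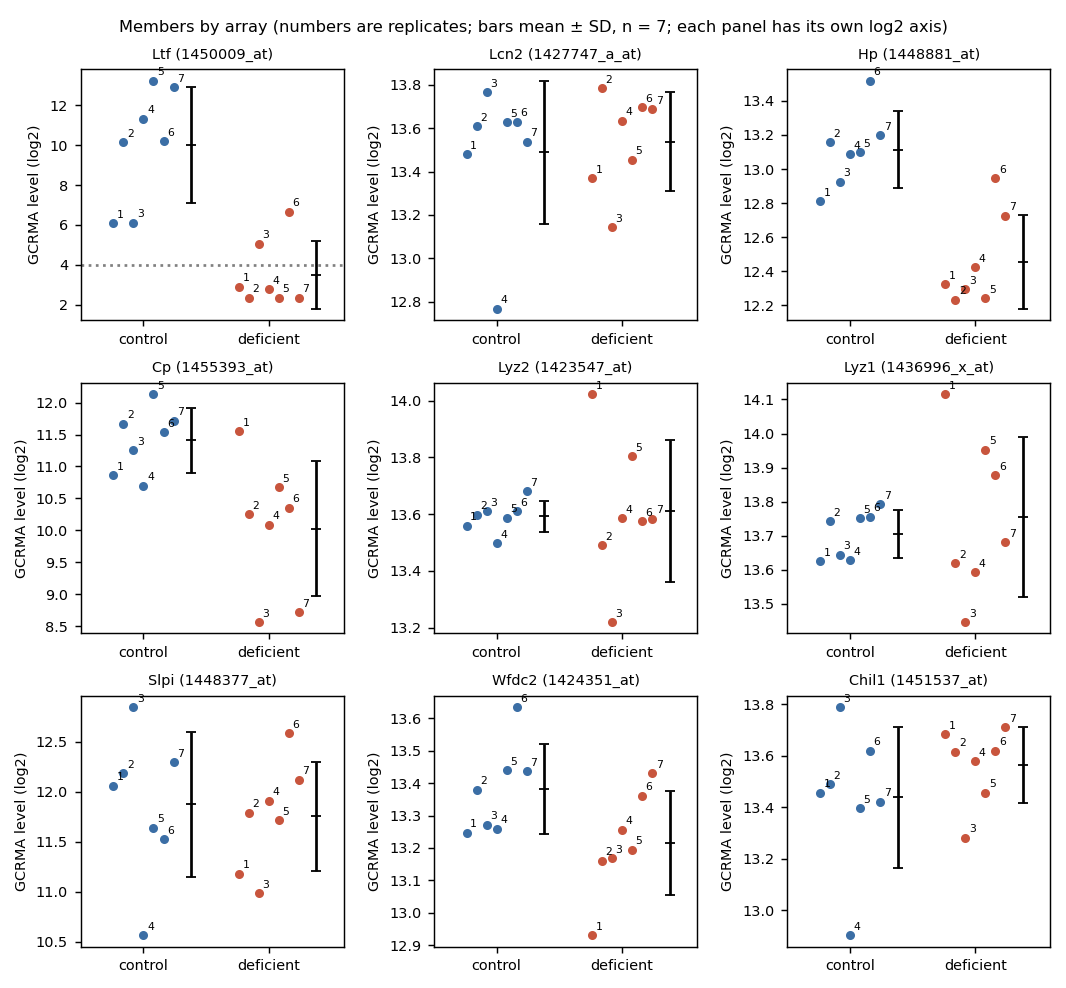
Level (GCRMA, log2) of the brightest probeset of each of the 9 genes, 1 point per array with its replicate number, and mean ± SD (n = 7) at the side of each group; each panel has its own axis, and the dotted line in the Ltf panel is the level of 4. The groups overlap in all 9 genes. Ltf, Hp and Cp lie mostly lower in deficient arrays, and for Wfdc2 4 deficient arrays lie below the lowest control. The group means of Lcn2, Chil1, Slpi and the lysozymes lie close together.

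Over the 16 tested member probesets 11 were lower and 5 higher in deficient arrays, where 47.4% of all 12701 tested probesets were lower. The groups did not overlap in 0 of the 16, against 0.496% of all tested probesets. In the limma fit over all tested probesets 0 of the 16 passed an adjusted p under 0.05, as 0.0394% of all did, and 9 had an unadjusted p under 0.05 (7 of Cp, with Ltf and Hp), against 14.7% of all. The genes were chosen with this comparison in view, so nothing is read from these counts, and 7 of the 16 probesets read the same gene. Counted by gene with the brightest probeset, 5 of the 9 were lower and the median difference was -0.12, beside 0.02 over all tested probesets.

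The count that passed depended on single arrays and on how arrays were weighted. It was 1 (Ltf) without control 1, control 3 or control 4 in turn, where 7, 6 and 85 of all 12701 probesets passed, against 5 with all arrays. It was 2 (Ltf and Hp) without deficient 6, where 30 of all passed, and 1 (Ltf) without deficient 3 and deficient 6 together, where 32 passed. With the leading digits as a random block, or with arrays averaged over them, it was 0, where 0 of all 12701 probesets passed. With a precision weight estimated for each array it was 9 (Ltf, Hp and 7 of Cp), in a fit that called 1900 of all 12701 tested probesets. As above, nothing is read from these counts, since the genes were chosen on these arrays. Control 1 and control 3 held the lowest control levels of Ltf. All 7 controls exceeded 4 for Ltf and so met the filter alone, while 5 of 7 deficient arrays were under 4.

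**Figure D3:**
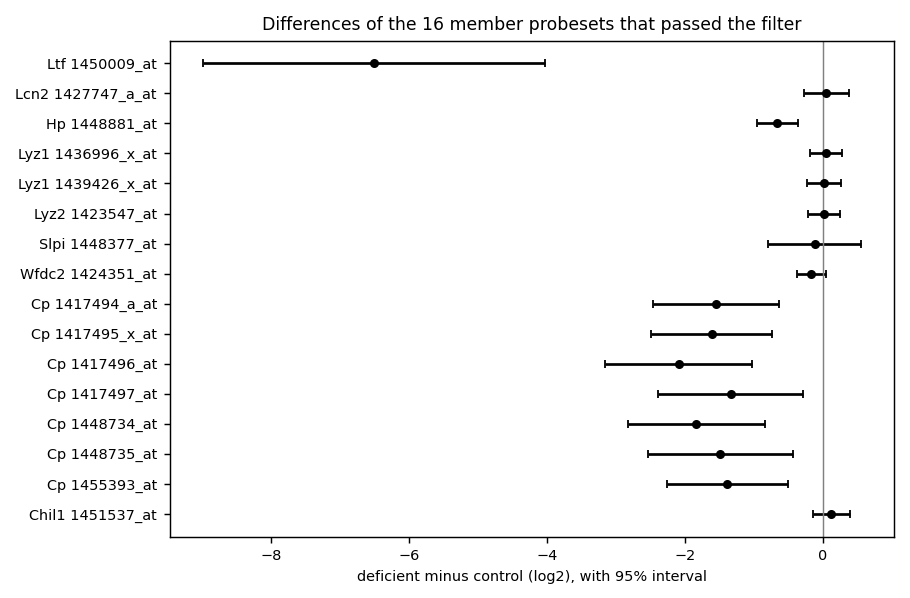
Difference between group means (deficient minus control, log2) with its 95% interval from the limma fit for the 16 tested member probesets. The intervals of Ltf, Hp and the 7 Cp probesets lie below 0, from -6.51 for Ltf to -0.66 for Hp, and those of the other 7 include 0.

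The lowest values of the 9 genes fell mostly on few arrays, and the highest values were more spread. The lowest control was control 4 for 5 genes and control 1 for the other 4, and the lowest deficient array was deficient 3 for 6 genes. The highest control was control 3 for 3 genes and control 5, control 6 or control 7 for 2 genes each. The highest deficient array was deficient 1 or deficient 6 for 3 genes each, deficient 7 for 2 and deficient 2 for 1. Deficient 1 and deficient 3 are also the arrays with the lowest agreement with their group.

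Within groups the members varied in separate company. After subtracting the mean of its group from each value, Lcn2 and Chil1 correlated at r = 0.87 (Spearman rho 0.72, 14 arrays) and Lcn2 and Slpi at r = 0.83 (rho 0.67). Without control 4 and deficient 3, the arrays farthest from the median of Lcn2, these were 0.46 and 0.56, so much of the relation rests on those arrays. Hp and Wfdc2 correlated at r = 0.80 (rho 0.79) and at 0.83 without control 6 and deficient 1. Cp correlated with Lyz1 at r = 0.82 (rho 0.79), or 0.57 without deficient 1 and deficient 3. Ltf and Hp gave r = 0.52 (rho 0.60), or 0.46 without control 6 and deficient 6. These are descriptions of 36 pairs over arrays that may not be independent, with no test.

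The genes whose values followed Ltf most closely within groups, 14 arrays with group means removed, were Mllt10 (r = 0.89), a chromatin cofactor gene, the airway secretoglobin Scgb3a1 (0.84), the mucosal scavenger protein gene Dmbt1 (0.80) and Hes6 (0.79). Scgb3a1 read 11.84 ± 1.93 in controls and 8.59 ± 0.85 in deficient arrays, and Dmbt1 7.11 ± 2.71 and 3.77 ± 3.36. Mllt10 itself differed by 0.05 (SE 0.11), so a gene can follow Ltf within groups and not between them. For Cp the 4 closest were Spsb1 (0.92), Stk10 (0.91), the club cell cytochrome gene Cyp2f2 (0.91) and Ace, which encodes angiotensin-converting enzyme (0.91). For Hp they were Gorasp2 (0.84), Mtm1 (0.84), Arfgap3 (0.83) and Aldh2 (0.78), of which Gorasp2 and Arfgap3 encode proteins of the Golgi. For Lcn2 they were Ints9, Fbxo9, Il18bp and Ube2e2 (0.86 to 0.87). They are the highest of the correlations with all tested genes, were not tested and were not recomputed with arrays left out. Ltf was under 4 in 5 of 7 deficient arrays, so its correlations rest mostly on the other arrays.

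Marker lists of airway cells lay lower in the same comparison as Ltf, Hp and Cp, although 0 genes of any marker list passed the limma threshold. Over all tested probesets 47.4% were lower and 14.7% had an unadjusted p under 0.05. Of the 12 club and airway secretory markers 10 were tested and 9 were lower, 7 with an unadjusted p under 0.05. The exception was the secretoglobin gene Scgb1a1, at 13.78 ± 0.05 in controls and 13.84 ± 0.26 in deficient arrays (0.06, SE 0.11). As for Lcn2, whether the arrays resolve differences at a level this high was not tested. The mean level of the list ran from 9.51 to 11.79 over controls and from 7.27 to 9.75 over deficient arrays. Of the 8 goblet and gland markers 4 were tested and all were lower (Muc5b, Agr2, Dmbt1 and Muc5ac). Their mean levels were 4.12 to 9.59 and 2.36 to 8.78. The order of arrays in either list was not tested against that of Ltf. Control 1, with a low Ltf, was the lowest control in both lists. Control 3, with an Ltf of 6.12, had a club level of 10.17, below every other control except control 1. Its goblet and gland level was 7.20, above that of control 6. Deficient 6, with the highest deficient Ltf, held the highest deficient level of the goblet and gland list. Its club level was below that of deficient 1 and above those of the other deficient arrays. Deficient 3, with an Ltf of 5.05, had the lowest club level of the 14 arrays (7.27). Its goblet and gland level was 4.37, below deficient 6 and deficient 2 and above the other deficient arrays. Deficient 1, with Ltf at background, had the highest deficient club level (9.75) and a goblet and gland level of 4.05. Of the 10 ciliated markers 6 were tested and all were lower, with mean levels of 6.55 to 9.98 and 4.50 to 7.97. The group ranges overlapped in each of these 3 lists. In each of them some deficient values were under 4, so the sizes depend on where the background is set. The filter asks for values above 4 in at least 7 arrays, which the controls can meet alone or for the most part. Markers near background in deficient arrays thus enter only where controls are high, which tilts these counts towards lower. Their part in the values of Ltf, Hp and Cp was not tested.

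Of the macrophage markers 11 of 12 tested were lower, beside 47.4% of all tested probesets, with a list median of -0.42. An unadjusted p under 0.05 was found for 2 (Adgre1 by -0.78, SE 0.28, and Siglecf by -1.27, SE 0.48), beside 14.7% of all tested probesets. Nothing particular to macrophage markers is read from that count. The mean levels of that list were 8.19 to 9.66 and 8.16 to 8.93 (controls, then deficient), and its part in the members' values was likewise not tested. The alveolar type II markers, 7 of 9 higher and 1 with an unadjusted p under 0.05, gave 12.54 to 12.73 and 12.23 to 12.88. Whether the arrays resolve differences at levels this high was again not tested. The neutrophil granule genes Camp, Ngp, Elane and Mpo, made as neutrophils mature, were at background in every array, at 2.14 to 2.19. Of the other untested neutrophil markers Cxcr2, Mmp9 and Csf3r reached 7.63, 5.00 and 4.34 among controls and stayed under 4 in deficient arrays. Mmp8 was under 4 in every array. Of the 14 neutrophil markers 3 were tested, with mean levels of 7.93 to 10.55 and 7.80 to 9.83. S100a8 and S100a9, the abundant neutrophil calcium-binding proteins, differed by 0.32 (SE 0.52) and 0.24 (SE 0.46), and the formyl peptide receptor gene Fpr2 by -1.32 (SE 0.80), so the 3 tested markers did not share a direction. Of the 6 basal and squamous markers 0 passed the filter, and Krt5, Krt13 and Ngfr lay at 2.15 to 2.18 in every array. Krt14 stayed under 4, while Trp63 ran from 2.17 to 6.90 over controls and was at 2.16 to 2.18 in deficient arrays, and Krt6a reached 5.59 in a deficient array.

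**Figure D4:**
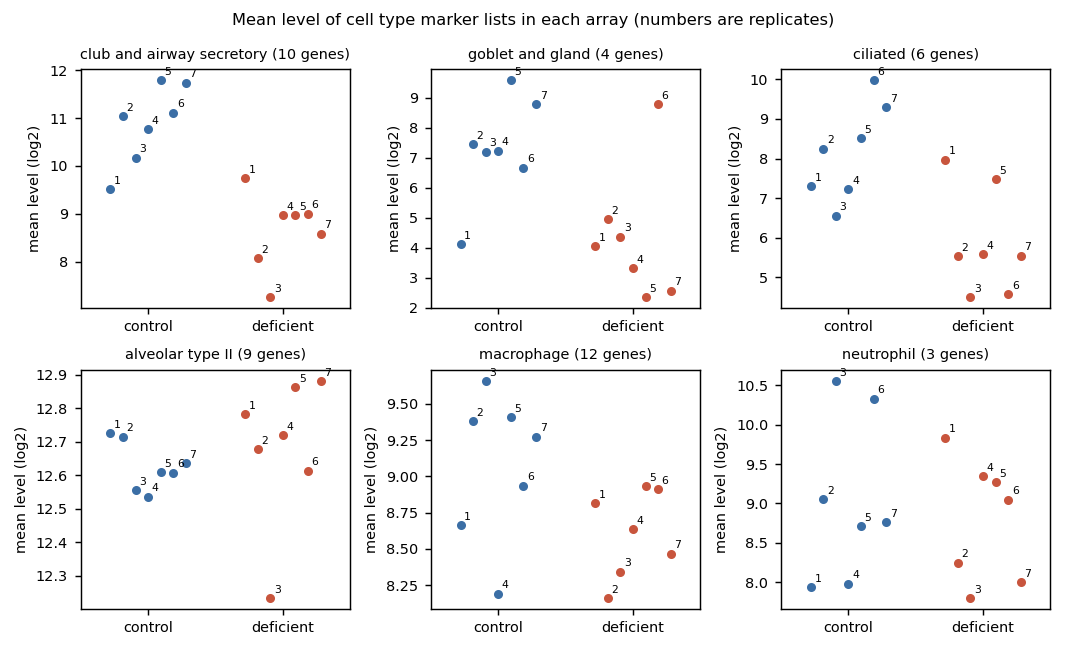
Mean log2 level of the tested genes of 6 cell type marker lists in each array, 1 point per array with its replicate number. The ranges of the groups overlap in all 6 lists. Median differences of the tested genes were -3.29 for goblet and gland, -2.87 for club and airway secretory and -2.28 for ciliated markers. They were -0.42 for macrophage, 0.03 for alveolar type II and 0.24 for neutrophil markers. Deficient means were under 4 for Muc5ac, Dmbt1, Rsph1, Tekt1 and Mlf1, so the goblet and gland and the ciliated sizes depend on where the background is set.

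Other genes of secreted defence were examined from 8 lists with 116 symbols, of which 58 had a tested probeset. Of these 38 were lower and 20 higher, with a median difference of -0.22, where 47.4% of all tested probesets were lower. In the limma fit 0 of the 58 passed (smallest adjusted p = 0.126), and 11 (19.0%) had an unadjusted p under 0.05, beside 14.7% of all tested probesets, so nothing particular to these genes is read from the count. All 11 were lower in deficient tumours. How such probesets divide by direction over all tested probesets was not counted, so nothing is read from this direction. Of these 11, 5 stood in the list of antimicrobial proteins of secretions and 4 among the upstream regulators.

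Among antimicrobial proteins of secretions 6 of 12 tested genes were lower, 5 of them with an unadjusted p under 0.05. Over all tested probesets these shares were 47.4% and 14.7%. Muc5b, which encodes the gel-forming airway mucin, read 9.45 ± 1.39 in controls and 5.94 ± 2.29 in deficient arrays (-3.51, SE 0.92, limma adjusted p = 0.134). Pigr, whose product carries polymeric immunoglobulin across epithelium, read 8.60 ± 1.15 and 5.70 ± 1.91 (-2.90, SE 0.77, adjusted p = 0.134). For each of them 7 of 7 deficient arrays read under the mean of the controls, and both genes are also in the club and airway secretory marker list. The other 3 of the 5 are airway markers too, Bpifa1 in the club and airway secretory list and Dmbt1 and Muc5ac in the goblet and gland list, so the 5 are not separate from those lists. Sftpa1, a surfactant collectin, differed by -0.04 (SE 0.10). Several mucosal genes failed the filter because they were near background in most arrays: Bpifb1 read 2.68 to 11.43 among controls and 2.33 to 3.98 among deficient arrays, Tff2 2.96 to 10.49 and 2.33 to 3.32, and Reg3g 2.15 to 8.12 and 2.15 to 2.52. These were chosen after their values were seen.

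The acute-phase list gave 5 of 8 tested genes lower, 1 with an unadjusted p under 0.05, beside 47.4% and 14.7% of all tested probesets. Serpina3n, a protease inhibitor of the acute phase, differed by -1.14 (SE 0.43, limma adjusted p = 0.252), Cd14 by -0.35 (SE 0.19) and Lrg1 by 0.14 (SE 0.31). Other members of the list read high, with control means of 10.85 for Itih4, 10.12 for Lbp and 8.91 for Orm1, which reached 12.16 in a deficient array. Saa1, Apcs, Crp, Fgb and A2m were at background in all 14 arrays, at 2.15 to 2.18, while Fga and Fgg reached 6.15 and 5.89 among controls and Orm3 8.92 among deficient arrays. Of the list of iron, haem and other plasma proteins 0 were tested, and Hpx, Ambp and Ttr lay at 2.15 to 2.43 in every array, although Alb reached 7.78 and Hamp 7.95 among deficient arrays.

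Relatives of the members gave no call, and their counts of lower genes stand beside 47.4% of all tested probesets. In the list of WAP and other secreted protease inhibitors 6 of 7 tested genes were lower, among them Wfdc1 (-0.50, SE 0.20, limma adjusted p = 0.271), Serping1, the C1 inhibitor (-0.74, SE 0.37), and cystatin C, Cst3 (-0.20, SE 0.11). The 3 tested chitinase family genes were lower, Chia1 by -1.73 (SE 0.94), Chid1 by -0.33 (SE 0.18) and Chil3 by -0.26 (SE 0.25). Of the lipocalin family Apod and Rbp4 were tested, at -0.42 (SE 0.79) and -0.38 (SE 0.56). Among receptors and clearance genes 5 of 7 were lower, with Lrp1, an endocytic receptor, at -0.45 (SE 0.23), the iron exporter Slc40a1 at 1.31 (SE 0.80) and the transferrin receptor Tfrc at -0.10 (SE 0.18), all above the threshold. Cd163, the haptoglobin-haemoglobin receptor of macrophages, was under 4 in every array.

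Of 19 tested upstream cytokines, receptors and transcription factors 11 were lower and 4 had an unadjusted p under 0.05, beside 47.4% and 14.7% of all tested probesets. Cebpb and Cebpd, factors of the acute-phase response, read 9.10 ± 0.45 against 8.26 ± 0.31 (-0.85, SE 0.20, limma adjusted p = 0.126) and 9.50 ± 0.40 against 8.71 ± 0.49 (-0.79, SE 0.23, adjusted p = 0.158). Both read under the mean of the controls in 7 of 7 deficient tumours, and neither passed. Cebpa, the C/EBP factor of differentiated epithelium, differed by 0.17 (SE 0.11). The cytokine genes Il6, Tnf and Il17a were under 4 in all 14 arrays.

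**Figure D5:**
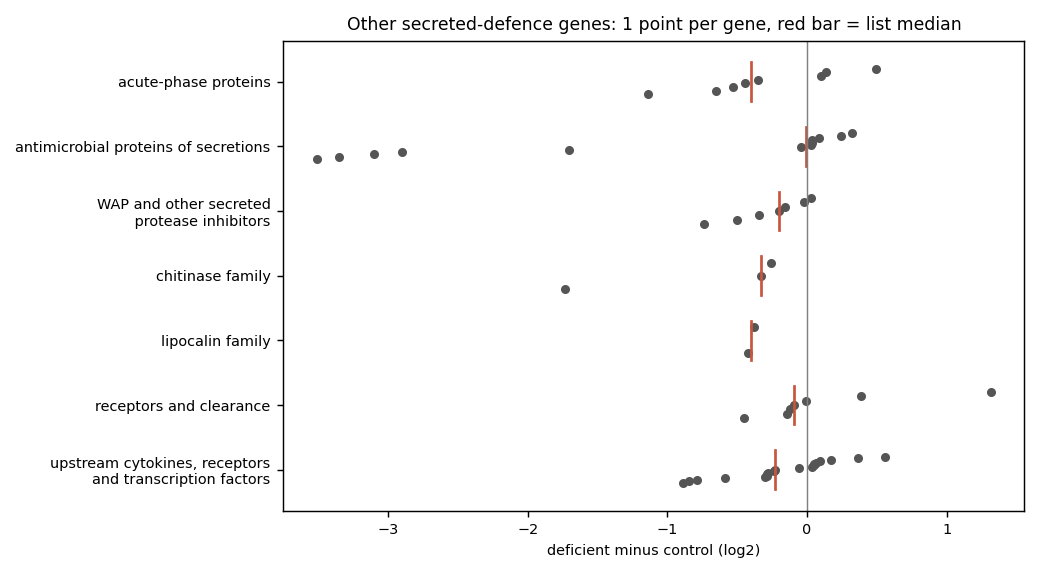
Difference between groups (deficient minus control, log2) of each tested gene in the lists of other secreted-defence genes, 1 point per gene, with the list median as a red bar. Medians lie between -0.40 and -0.01, and the widest differences are those of mucosal genes such as Muc5b at -3.51.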

How the data were processed

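The authors deposited log2 probeset levels made with GCRMA, per the submitters' processing notes, which subtracts a probe-sequence background, normalises between arrays and summarises each probeset. Its version and settings are not given in the sources used here. Total RNA was extracted with Trizol and labelled with biotin, per the labels' protocols. Probesets were named from the platform annotation, which can be old, and only where it gives 1 gene. A gene is represented by its probeset with the highest mean over all arrays.

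The comparison used limma 3.58.1, run in R 4.3.3 (lmFit, eBayes, two-sided, Benjamini-Hochberg over 12701 probesets that were not controls and exceeded 4 in at least 7 arrays), checked on simulated data. The threshold was an adjusted p under 0.05. The design text gives 7 mice per group without tying arrays to mice, and p-values measure the spread between these arrays. For arrays, their number limits the precision.

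The members and lists were chosen with earlier results of these data known. Named are all members, of each list the 2 tested genes with the smallest p and the brightest, and the genes most correlated with a member within groups. Of the 116 list symbols 14 had no probeset matched here and 44 did not pass the filter. Alternatives covered the filter, the background level, scaling, the variance model, array weights, the replicate and leading numbers and single arrays left out.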

Additional observations from a re-analysis of the deposited data

Results flagged for a closer look

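Among 74 sets of 7 arrays examined (37 probesets in each group), 7 held an array far from the others by Dixon's criterion, where chance gives about 1 in 20. Lcn2 in control 4 read 12.77, against 13.48 for the next array. Deficient 3 read 4.57 in the Cp probeset 1417496_at, against 6.98, and 4.77 in the Cp probeset 1448734_at, against 6.80. Deficient 3 was also low for Sftpa1 (13.56, against 13.92) and Serping1 (8.18, against 10.03). Control 4 was low for Sftpa1 (13.74, against 13.99), and deficient 7 for Wfdc1 (3.22, a value under 4, against 3.95).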

How the results depend on the processing

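Array weights, which estimate a precision for each array, called 9 member probesets (Ltf, Hp and 7 of Cp) and 14 of the other secreted-defence genes, in a fit that called 1900 of 12701 probesets; the cause was not tested. Without deficient 3 and 6 together 1 member passed (Ltf), where 32 of 12701 probesets passed. With single arrays left out 0 to 2 members and 0 of the other genes passed, where 0 to 85 of all passed. With the replicate block 0 members and 0 other genes passed, where 2 of all passed. As said above, nothing is read from the member counts. Same-numbered arrays of the groups correlated in their deviations at -0.23 to 0.22. These values gave no sign that the numbers pair the arrays, but weak correlations cannot exclude a pairing. The remaining alternatives also gave 0 for both counts, in fits that called 0 to 9 of all tested probesets. The filter that asks for values above 4 in all 14 arrays leaves Ltf and a pair of Cp probesets untested. Over the alternatives, single arrays left out included, the difference ran from -7.57 to -5.47 for Ltf, from -0.74 to -0.59 for Hp and from -1.64 to -1.14 for Cp (1455393_at). The Wfdc2 and Chil1 differences kept their sign in 25 settings, while those of Lcn2 (1 of 25), Lyz2 (4 of 25), Slpi (3 of 25) and both Lyz1 x_at probesets (2 and 8 of 25) changed it. The 7 Cp probesets were lower in every setting that tested them. Signal near background limits Ltf and Cp 1417497_at.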
